A study of Homo sapiens with 6 samples.

Results

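The transcripts of cytochrome c and of the proteins around the apoptosome were followed in RNA that copurified with the double-stranded RNA-binding protein Staufen1 (Stau1). The set has 4 members, CYCS, APAF1, CASP9 and DIABLO, taken by gene symbol from a table of 37879 targets. The rule itself used the symbol alone, though the set was proposed with earlier results of these data known. All 6 samples were HEK293T cells, a human embryonic kidney line that carries the SV40 large T antigen, treated with nocodazole at 50 ng/ml for 15 h per the labels (the methods give a longer time) and labelled as prometaphase. The 3 control IP samples came from cells that received an empty vector, and the 3 Stau1 IP samples from cells given plasmids coding for Stau155-FLAG. Both groups were precipitated with anti-FLAG antibody, so each array shows RNA bound to the beads and not the RNA of the whole cell. The tagged protein was expressed by transfection in 1 line, beside the cells' own Stau1. Nothing in the labels says that the replicates were separate cultures, so p-values measure only the spread between these samples. RNA content per cell and number of cells cannot be told apart in such bulk samples, nor can the amount of a transcript in the cell and the part of it that was bound.

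Nocodazole depolymerizes microtubules and holds cells in mitosis, where a long arrest can end in death by the mitochondrial pathway. In that pathway BAX and BAK1 open the outer mitochondrial membrane, and cytochrome c, an electron carrier of the respiratory chain, leaves for the cytosol. There it binds APAF1, which assembles into the apoptosome and recruits procaspase-9, and caspase-9 then cleaves the executioner caspases. DIABLO, also called Smac, leaves the same compartment and binds inhibitor of apoptosis proteins such as XIAP, which otherwise hold caspases back.

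The beads measured these transcripts through short stretches of sequence, shown here because a signal reports only what pairs with the probe. The first 30 of the 50 bases are given 5′ to 3′ for the 3 probes whose sequence was at hand, and no letters are in capitals since no part was singled out.
CYCS probe: cccacataagtctcttctaggcactgtcgg
APAF1 probe 1: tgatggagctgcaaatttcatggcagttca
APAF1 probe 2: ctgtggggtaggtcggggagagggtaaggg
GC content over the whole probe was 54.0% for CYCS, and 50.0% and 52.0% for the APAF1 pair. CYCS was measured by 1 probe, APAF1 and CASP9 by 2 each and DIABLO by 3, as read from the form of the deposited detection p-values. CYCS lies on the minus strand of chromosome 7, APAF1 on the plus strand of chromosome 12, CASP9 on the minus strand of chromosome 1 and DIABLO on the minus strand of chromosome 12. No coordinates are given, as the table names no genome build.

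The arrays were alike in bead number, with a median of 41 beads per target. Targets detected (detection p under 0.05) ran from 11635 on Stau1 IP array 2 to 13054 on control IP array 2. All 5 HEK293T markers and all 5 mitotic markers were detected on every array, with summed background-subtracted signals of 11720 to 14900 and 26620 to 31540 in control IP against 11310 to 13130 and 25760 to 32020 in Stau1 IP. Of 5 markers of other cells, PTPRC, CD3E, HBB and ALB were detected on no array, and COL1A1 was detected on 5. STAU1 itself had signals of 2499, 3246 and 2758 in control IP and 2845, 1857 and 3130 in Stau1 IP, with a log2 difference of -0.16 (SE 0.15, limma adjusted p = 0.866). The groups overlapped, and its level in bound RNA does not check the tagged protein. The arrays numbered 2 stood apart from their labels. Over the 9884 targets detected on all arrays, control IP array 2 correlated at 0.983 and 0.984 with Stau1 IP arrays 1 and 3, and at 0.977 and 0.982 with control IP arrays 1 and 3. Stau1 IP array 2 correlated at 0.940 and 0.943 with the other Stau1 IP arrays, but at 0.977 with control IP array 3. Whether those arrays carry the wrong label was not tested. The members, most counts and the named pathway genes are given with all arrays and without both of these.

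CYCS had the most uneven signal of the set. Control IP arrays 1, 2 and 3 read 187 ± 8.99, 1773 ± 39.7 and 225 ± 11.3 (signal ± standard error between beads). Stau1 IP arrays 1, 2 and 3 read 2914 ± 116, 137 ± 4.995 and 2658 ± 74.7. Control IP array 2 and Stau1 IP arrays 1 and 3 were thus bright, the other 3 were dim, and the groups overlapped fully, with the lowest value of all in Stau1 IP. After subtraction of the background, Stau1 IP array 1 was 58.1-fold above Stau1 IP array 2, and control IP array 2 was 15.6-fold above control IP array 1. Control IP arrays 1 and 2 differed by 39.0 bead standard errors, and the bright Stau1 IP arrays 1 and 3 by 1.86. Control IP array 2 lay 9.30 and 10.5 bead standard errors below those. Bead error is technical and does not give the variation between samples.

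On the normalized log2 scale CYCS spanned 3.89 over the 6 arrays, and only 1 of the 9884 targets detected on all arrays had a larger range. The CYCS means were 9.14 ± 1.47 (SD, n = 3) in control IP and 10.29 ± 2.17 (SD, n = 3) in Stau1 IP. The log2 difference was 1.14 (SE 1.29, 95% interval -2.09 to 4.37), which did not pass the test (limma adjusted p = 0.891, exact two-sided permutation p = 0.5, with 0.1 the smallest that 3 arrays against 3 allow). The interval holds both a large enrichment and a depletion.

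**Figure D1:**
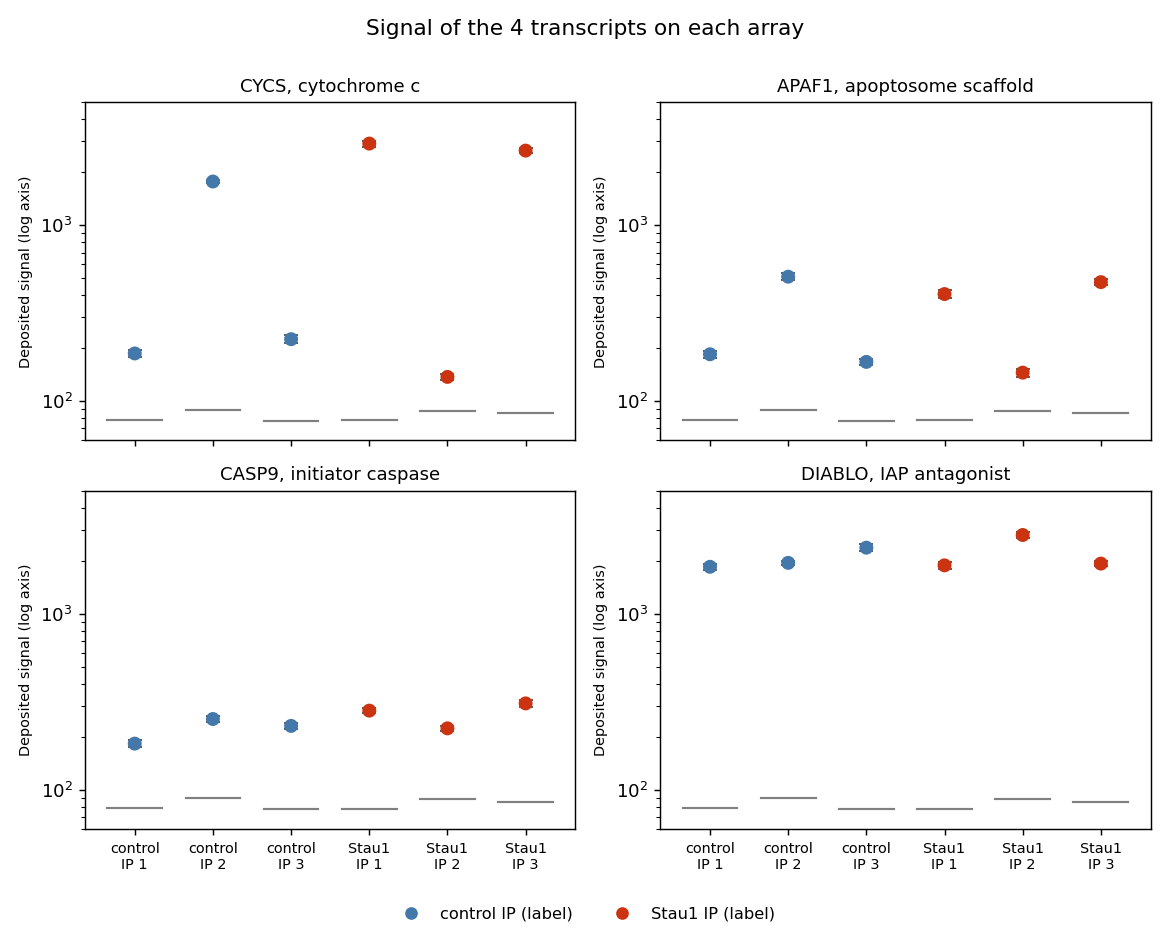
Deposited signal of CYCS, APAF1, CASP9 and DIABLO on each of the 6 arrays (log axis), with error bars for the standard error between beads. CYCS is between 1773 and 2914 on control IP array 2 and Stau1 IP arrays 1 and 3, and between 137 and 225 on the others.

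Leaving out the doubtful arrays changed the CYCS result. Without control IP array 2 the log2 difference was 1.99 (limma adjusted p = 0.799), and without Stau1 IP array 2 it was 2.40 (95% interval 0.19 to 4.60, unadjusted p = 0.0384, adjusted p = 0.301, limma). Without both it was 3.24 (SE 0.12, 95% interval 2.91 to 3.58, limma adjusted p = 0.00719). These arrays were singled out with their values known, so the p-value of the last fit is a description of the other 4 arrays and no independent evidence.

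APAF1, the scaffold of the apoptosome, had the same 3 arrays on top with a smaller span. In control IP its signals by replicate number were 185 ± 8.53, 510 ± 23.8 and 167 ± 6.32. In Stau1 IP they were 406 ± 19.7, 145 ± 7.73 and 475 ± 18.7, in the same order. Control IP array 2 was the highest of all 6 and Stau1 IP array 2 the lowest, so the groups overlapped. Background-subtracted signal was 4.70-fold higher on control IP array 2 than on control IP array 3, and 6.87-fold higher on Stau1 IP array 3 than on Stau1 IP array 2. Control IP array 2 lay 1.16 bead standard errors from Stau1 IP array 3 and 3.36 from Stau1 IP array 1, and those Stau1 IP arrays lay 2.53 apart.

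The APAF1 means were 8.46 ± 0.61 (SD, n = 3) and 8.63 ± 0.66 (SD, n = 3), a log2 difference of 0.18 (SE 0.44, 95% interval -0.93 to 1.28, limma adjusted p = 0.958, exact permutation p = 1). The difference did not exceed the spread between arrays. Its direction turned when control IP array 3 or Stau1 IP array 3 was left out (-0.037 and -0.035). Without both arrays numbered 2 it was 0.91 (SE 0.07, 95% interval 0.70 to 1.11, limma adjusted p = 0.0155), which is under the 2.5-fold mark of the study's methods on this scale. The transformation compresses dim signals, and in background-subtracted signal Stau1 IP arrays 1 and 3 were 3.09-fold to 4.35-fold above control IP arrays 1 and 3.

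CASP9, the initiator caspase that the apoptosome activates, had the smallest range of the 4 on the normalized log2 scale, at 0.38. In background-subtracted signal its largest fold between arrays was 2.15, above the 1.53 of DIABLO. The control IP signals, in replicate order, were 183 ± 8.95, 253 ± 9.88 and 231 ± 9.48. The Stau1 IP signals were 283 ± 10.4, 224 ± 7.78 and 311 ± 14.0. On this scale Stau1 IP array 2 lay below 2 of the control IP arrays. After normalization the 3 Stau1 IP arrays (8.52, 8.56 and 8.54) all lay above the control IP arrays (8.18, 8.29 and 8.42). Such a separation in that direction was seen for 6.66% of all targets and 10% of those detected on all arrays.

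The log2 difference of CASP9 was 0.245 (SE 0.065, 95% interval 0.08 to 0.41) with an unadjusted p of 0.0108, and after adjustment over all targets it did not pass (limma adjusted p = 0.349, exact permutation p = 0.1). The separation was also lost with median centring, without normalization between arrays and in the floored log2 signal. Without both arrays numbered 2 the difference was 0.23 (limma adjusted p = 0.333).

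DIABLO, the antagonist of inhibitor of apoptosis proteins, had its highest signal on Stau1 IP array 2. In replicate order control IP gave 1857 ± 81.3, 1955 ± 54.9 and 2386 ± 105. Stau1 IP gave 1893 ± 90.7, 2816 ± 105 and 1936 ± 64.3. That array was the lowest for CYCS and APAF1. It exceeded Stau1 IP array 1 by 1.503-fold after background subtraction, or 6.66 bead standard errors. The other 5 arrays overlapped between groups.

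DIABLO means were 11.19 ± 0.23 (SD, n = 3) and 11.22 ± 0.39 (SD, n = 3), a log2 difference of 0.03 (SE 0.22, 95% interval -0.52 to 0.59, limma adjusted p = 0.988, exact permutation p = 0.9). Without both arrays numbered 2 it turned to -0.29 (95% interval -0.60 to 0.01, limma adjusted p = 0.299). The arrays overlapped with all 6 in the fit, and without the arrays numbered 2 DIABLO was lower on both Stau1 IP arrays than on both control IP arrays on the normalized scale. In those 4 arrays 24% of all targets and 37.8% of those detected on all arrays were apart in that direction.

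By the call of the study's methods (fold above 2.5 and unadjusted p under 0.05) 0 of the 4 members were enriched, beside 0.00264% of all targets, and 0 were depleted, beside 0%. In limma 1 member, CASP9, had an unadjusted p under 0.05, and the methods' t-test also gave 1. After adjustment 0 members passed in either. Among all targets 3.96% were higher and 5.03% lower at that unadjusted threshold in limma. Of the 9884 targets detected on all arrays, 1002 were higher and 1202 lower. The methods' t-test gave 2983 of 37879 targets over both directions. Without both arrays numbered 2, CYCS was the only member enriched, beside 0.599% of targets, and 0 members were depleted, beside 0.0396%. CYCS and APAF1 passed after adjustment in that fit, beside 3.36% of targets that were higher. All 4 members were detected on all arrays. Of the 9884 targets so detected, 195 were enriched, 14 were depleted and 978 were higher after adjustment in that fit.

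**Figure D2:**
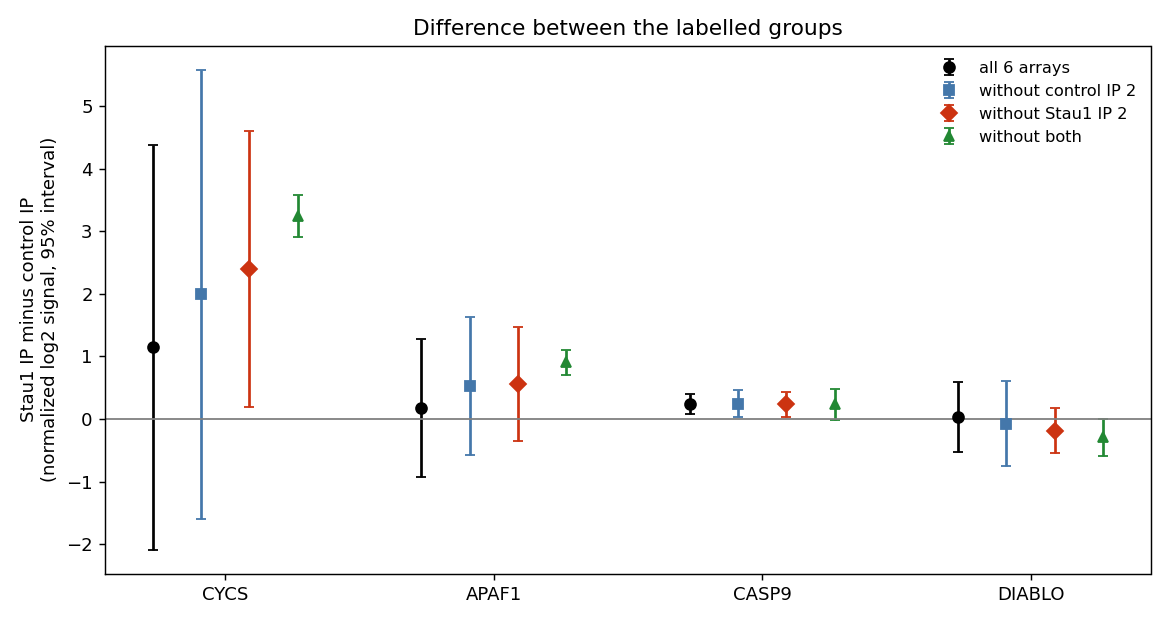
Log2 difference between Stau1 IP and control IP for each member, with 95% intervals from limma, with all 6 arrays and with arrays left out. The CYCS interval runs from -2.09 to 4.37 with all arrays and from 2.91 to 3.58 without both arrays numbered 2.

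The members did not share 1 profile. CYCS and APAF1 had their 3 highest values on control IP array 2 and Stau1 IP arrays 1 and 3, as did 16% of the targets detected on all arrays. Their centred log2 profiles were 1.12 apart (root mean square distance over 6 arrays), which placed APAF1 at rank 217 of 9443 targets by nearness to CYCS. DIABLO was 1.84 from CYCS, at rank 8102. CASP9 ranked 3462. The range over arrays was 1.28 for APAF1, larger than for 91.94% of the targets detected on all arrays. It was 0.72 for DIABLO and 0.38 for CASP9, larger than for 59.52% and 22.92%.

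**Figure D3:**
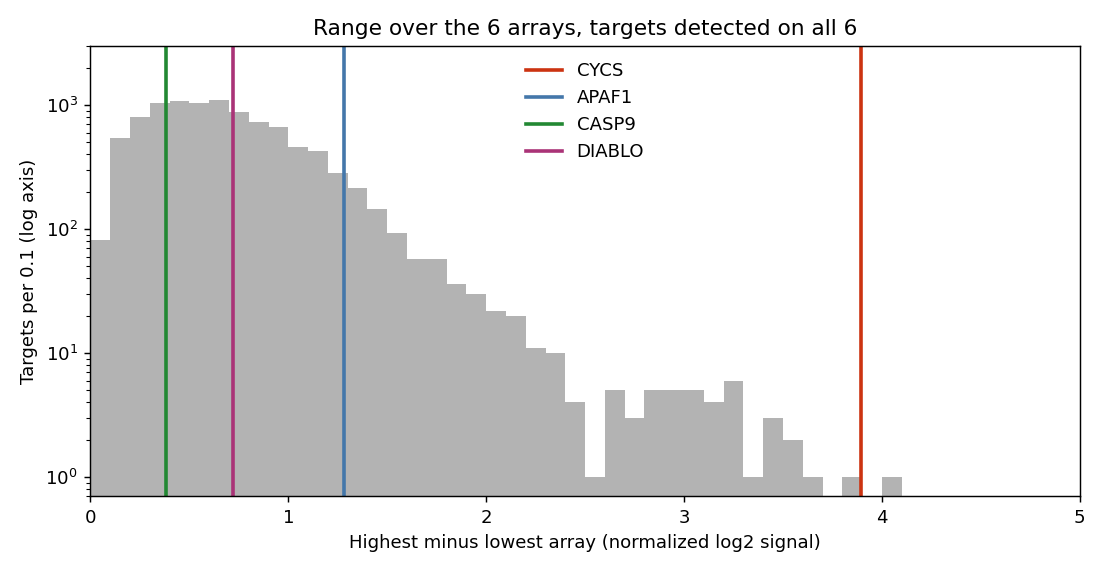
Histogram of the range of normalized log2 signal over the 6 arrays for the 9884 targets detected on all arrays, with the 4 members marked. CYCS, at 3.89, lies at the far right end, and CASP9, at 0.38, lies among the narrower ranges.

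Targets with profiles nearest to CYCS were MRPS16 at a distance of 0.145, then RAB2B at 0.232, CRLS1 at 0.238, MMACHC at 0.239 and LOC158318 at 0.239. The nearest to APAF1 was WNT3A at 0.084. For CASP9 it was ABCB6 at 0.027, and for DIABLO it was SNAP47 at 0.023. These distances describe likeness over 6 arrays of 1 experiment and carry no test.

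Cytochrome c has many near-identical copies in the human genome, and 1 of them, CYCSL1 (cytochrome c, somatic-like 1, chromosome 6), had its own target of 2 probes, looked up after values had been seen. Its signals by replicate were 2832, 2274 and 2102 for control IP and 1303, 2331 and 1579 for Stau1 IP. The copy was detected on every array and was lowest on Stau1 IP arrays 1 and 3, where CYCS was highest. Its log2 difference was -0.52 (SE 0.28, limma adjusted p = 0.696), and -0.90 (SE 0.17, limma adjusted p = 0.073) without both arrays numbered 2. Which transcripts each probe bound was not tested, so the CYCS level is uncertain to that extent.

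**Figure D4:**
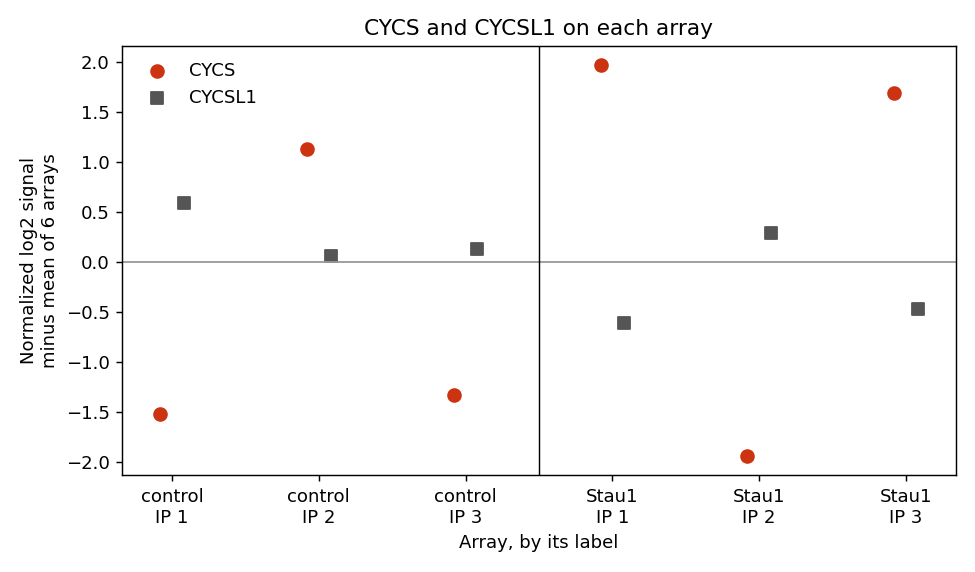
Normalized log2 signal of CYCS (circles) and CYCSL1 (squares) on each of the 6 arrays, minus the mean of the 6 arrays for each target. CYCS deviates from -1.93 to 1.96, and CYCSL1 from -0.61 to 0.59 with its lowest values on Stau1 IP arrays 1 and 3.

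The other genes of the pathway were 65 targets in 9 lists, of which 43 were detected on all arrays and 11 on none. By the 2.5-fold call 0 of 65 were enriched and 0 depleted, and 0 passed after adjustment in limma or in the methods' t-test. At an unadjusted p under 0.05 limma had 10 higher and 8 lower, beside 3.96% and 5.03% of all targets. Among the 43 detected on all arrays limma had 8 higher and 8 lower, beside 1002 and 1202 of the 9884 targets so detected. The methods' t-test gave 10 of 65 over both directions, beside 2983 of 37879 targets. Groups did not overlap for 8 higher and 10 lower, or 12.3% and 15.4% of the list, beside 6.66% and 7.88% of all targets. Among the 43 detected on all arrays they were 6 and 10, or 14% and 23.3%, beside 10% and 13% of all targets so detected. With both arrays numbered 2 left out the counts were 24 and 17 of 65, or 36.9% and 26.2%, beside 22.3% and 24% of all targets. Among the 43 they were then 37.2% and 32.6%, beside 30.6% and 37.8% of all targets detected on all arrays. The median log2 difference was 0.01, and 0.00 over all targets.

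Upstream of cytochrome c release, 4 of the 11 pro-apoptotic BCL2 family genes were separate and higher in Stau1 IP, and 1, PMAIP1, was separate and lower. The shares were 6.66% and 7.88% of all targets, and 10% and 13% of those detected on all arrays. BBC3, 1 of the 4, was detected on no array. The counts of separate genes were 6 and 2 of 11 without both arrays numbered 2. Beside them stood 22.3% and 24% of all targets, and 30.6% and 37.8% of those detected on all arrays. BAX, which forms pores in the outer membrane, read 391, 550 and 432 in control IP and 647, 642 and 850 in Stau1 IP. Its log2 difference was 0.54 (SE 0.08, limma adjusted p = 0.187), and 0.52 without both arrays numbered 2 (limma adjusted p = 0.0655). BOK, a relative of BAX, read 189, 309 and 198 against 449, 256 and 394, so its deposited signals overlapped and its normalized values did not (0.56, SE 0.13, limma adjusted p = 0.276). BAK1, the other pore former, read 358, 851 and 577 against 1588, 559 and 1779, with a log2 difference of 0.96 (SE 0.38, limma adjusted p = 0.55). Like CYCS, it had its 3 highest values on control IP array 2 and Stau1 IP arrays 1 and 3. PMAIP1, also called NOXA, had a log2 difference of -0.47 (SE 0.29, limma adjusted p = 0.742) that shrank to -0.084 without both arrays numbered 2 (limma adjusted p = 0.529). Its deposited signals overlapped, at 767, 1104 and 833 in control IP and 871, 295 and 895 in Stau1 IP.

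Among genes that restrain or assist the apoptosome, 3 of 7 were separate and lower in Stau1 IP, beside 7.88% of all targets and 13% of those detected on all arrays. There were 4 of 7 without both arrays numbered 2, beside 24% of all targets and 37.8% of those detected on all arrays. HSP90AA1, a chaperone, read 9882, 9399 and 7892 in control IP and 5736, 4937 and 6368 in Stau1 IP. Its log2 difference was -0.65 (SE 0.11, limma adjusted p = 0.208), and -0.57 without both arrays numbered 2 (limma adjusted p = 0.0666). PTMA, prothymosin alpha, known to hinder apoptosome formation, read 4296, 3229 and 3078 against 2008, 1815 and 2421 (-0.75, SE 0.16, limma adjusted p = 0.264). The PTMA difference was -0.83 without both arrays numbered 2 (limma adjusted p = 0.0994). Of the 7 inhibitor of apoptosis genes 1 was separate and higher and 1, BIRC2, separate and lower, beside 6.66% and 7.88% of all targets. Leaving out both arrays numbered 2 gave 4 and 1, beside 22.3% and 24%, and 30.6% and 37.8% of targets detected on all arrays. Of those 4 higher genes, XIAP, BIRC3 and BIRC6 were detected on 4 arrays each and BIRC7 on none. BIRC2 read 361, 349 and 367 against 234, 231 and 244 (-0.51, SE 0.14, limma adjusted p = 0.349). HSP90AA1, PTMA and BIRC2 had lower values on every Stau1 IP array, array 2 included, and with all arrays none passed after adjustment. Without both arrays numbered 2 BIRC2 passed (-0.73, limma adjusted p = 0.0103) and the others did not.

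Downstream, the caspase substrates had 4 of 8 genes (DFFA, DFFB, ACIN1 and LMNB1) with the same 3 highest arrays as CYCS and APAF1. The share was 9.61% of all targets and 16% of those detected on all arrays. DFFB was detected on 4 arrays. DFFA, the inhibitor of the nuclease that cuts DNA in apoptosis, read 735, 3147 and 1001 in control IP and 3973, 1113 and 4139 in Stau1 IP, with a log2 difference of 0.94 (SE 0.64, limma adjusted p = 0.783). Its range of 2.19 was the widest of the 43 genes detected on all arrays. ACIN1, which acts in chromatin condensation, ran from 1694 to 3915, with a log2 difference of 0.50 with all arrays (limma adjusted p = 0.583). Of the caspases, CASP2 had those 3 highest arrays and a range of 1.11, and CASP6, an executioner, did not and had a range of 1.15. Their log2 differences without both arrays numbered 2 were 0.78 for CASP2 (limma adjusted p = 0.126, 0.38 with all arrays) and -0.58 for CASP6 (0.51, -0.38 with all arrays). HTRA2, released from mitochondria beside cytochrome c and DIABLO, ran from 434 to 1117 with the same 3 highest arrays as CYCS. The log2 difference of HTRA2 with all arrays was 0.55 (limma adjusted p = 0.523). VDAC1, the channel of the outer membrane, ran from 4811 to 9560 with its lowest value on Stau1 IP array 2, and its log2 difference was -0.35 with all arrays (limma adjusted p = 0.743) and -0.12 without both numbered 2 (0.78).

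The same 3 highest arrays as CYCS were found in 13 of the 65 list genes, or 20%. The share was 9.61% of all targets, most of which were detected on no array. Among list genes detected on all arrays they were found in 8 of 43, or 18.6%, beside 16% of all targets so detected. That share lay near the background. They were found in 0 of the 10 genes of cytochrome c maturation and of its respiratory chain partners. Without both arrays numbered 2, the list held 5 genes that were higher after adjustment, BAK1, BOK, HTRA2, DFFA and ACIN1, and 1 that was lower, BIRC2. Their log2 differences were 1.52 for BAK1 (limma adjusted p = 0.0281), 1.99 for DFFA (0.0106), 0.85 for HTRA2 (0.0141), 0.81 for ACIN1 (0.0168), 0.74 for BOK (0.0356) and -0.73 for BIRC2 (0.0103). The background shares in that fit were 3.36% higher and 2.58% lower over all targets. Among list genes detected on all arrays 5 of 43 were higher and 1 was lower. Of the 9884 targets so detected, 978 were higher and 859 lower.

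**Figure D5:**
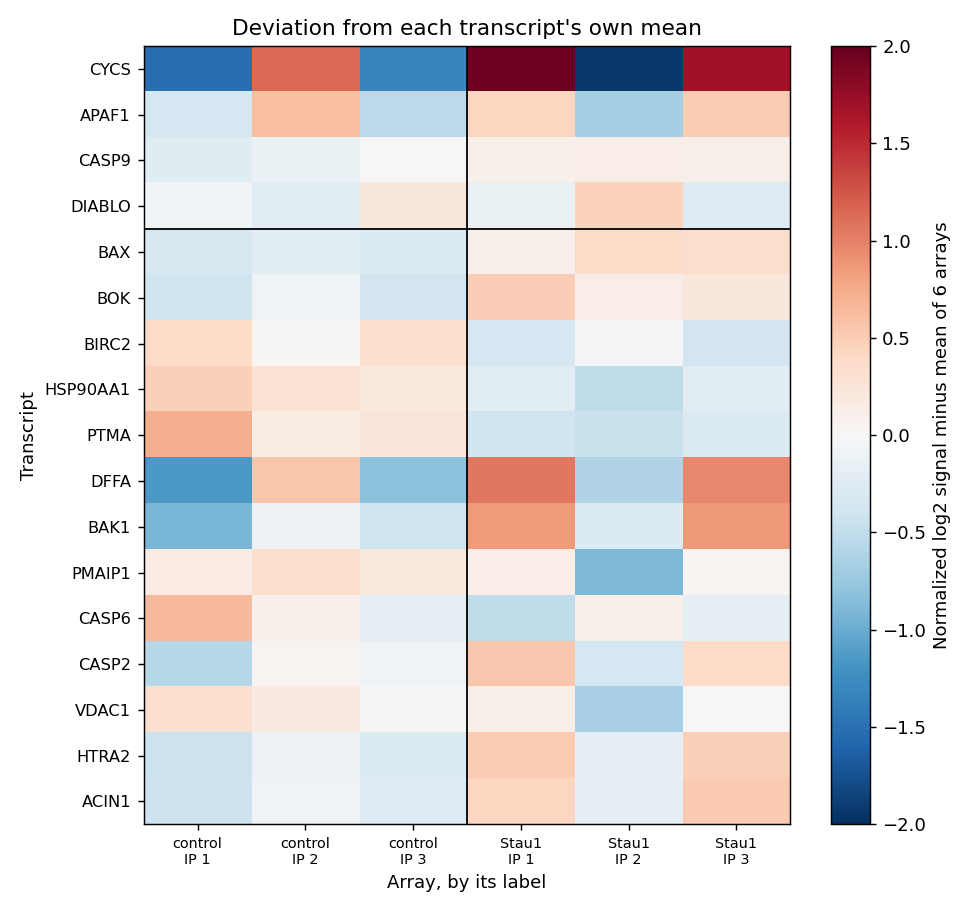
Heat map of normalized log2 signal minus the mean of the 6 arrays, for the 4 members (upper rows) and the named pathway genes (lower rows), with arrays in columns by label. CYCS spans -1.93 to 1.96, and APAF1, DFFA and BAK1 share its 3 highest arrays, control IP 2 and Stau1 IP 1 and 3.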

How the data were processed

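The authors recorded the arrays in BeadStudio and deposited, per target, the signal intensity without normalization, the standard error between beads, the number of beads (a count) and a detection p-value. No column of per-sample values was left out. For multi-probe targets the deposited detection p-value had the form of a combination of probe p-values over 759 implied negative controls. This form gave the number of probes for all but 5361 targets, and it puts some bright targets past the detection threshold.

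Values were computed with R 4.3.3, limma 3.58.1 and mgcv 1.9.3, and plots with Python 3.11.15 and matplotlib 3.10.9. For the background, the 200 targets whose detection p-values lay closest to 0.5 were taken, and their median signal was subtracted. A variance stabilizing transformation was fitted on each array over 500 bins without the lowest 33.3% of signals. A monotone spline with 10 knots then mapped each array on control IP array 2, 1 of the doubtful arrays. That array stayed the reference for the values in the fits that left it out. In effect the transformation added 115 to 160 signal units before taking log2, so normalized differences understate folds of dim transcripts such as CYCS. Its form was settled after 3 forms had been run with results of these data known, and the other forms were not rerun here. The authors' analysis program was not run here.

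Groups came from the labels. The comparison used lmFit and eBayes of limma over all targets, two-sided, with Benjamini-Hochberg adjustment, and an exact permutation test for each member. Members and gene lists were chosen with earlier results of these data known. Named list genes were those whose arrays did not overlap with a log2 difference above 0.5 in size, and the 10 with the largest range among those detected on all arrays. The 5 targets nearest to each member were named by profile, and not all are printed. On simulated data for this comparison, over 37879 targets with 200 changed 4-fold, 98% were recovered where background-subtracted signal exceeded 1000. With a limit of 300 the first run gave 86.5%, and the limit was then raised. There were 0 false calls in each. The simulated noise was smaller than the spread of CYCS and APAF1 between arrays, and no simulated array resembled the other group. APAF1 and CASP9 lay below 1000 on every array. These rates therefore do not carry over to the members. Alternatives were other normalizations, filters, variance models, the replicate block and leaving out arrays. The number of arrays, 3 per group, limits the precision.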

Additional observations from a re-analysis of the deposited data

How the results depend on the processing

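Over 20 alternatives, CASP9 kept its direction in all (0.05 to 0.42) and CYCS did too (0.45 to 3.24). CYCS met the 2.5-fold call without Stau1 IP array 2 (2.40, limma adjusted p = 0.301) and without both arrays numbered 2 (3.24, limma adjusted p = 0.00719). Without normalization between arrays it was 1.31, under that fold, with limma adjusted p = 3.1e-06. In that fit limma estimated infinite prior degrees of freedom, gave every target a residual SD of 0.264 in place of 1.94 for CYCS, and so took no account of the CYCS spread. A robust fit of the same values, chosen after seeing the data, gave adjusted p = 0.911. Both moved the median of the other list genes to 0.10, beside 0.11 over all targets. DIABLO turned with median centring (-0.021) and without both arrays (-0.29). Skipping background subtraction could not differ, since the transformation absorbs a constant.

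Leaving out 1 array at a time gave 0.45 to 2.40 for CYCS, -0.037 to 0.56 for APAF1, 0.19 to 0.31 for CASP9 and -0.19 to 0.17 for DIABLO. Targets enriched, 1 with all arrays, then ran from 0 to 104, targets depleted from 0 to 8, and other list genes enriched from 0 to 2. Targets enriched and depleted were 3 and 6 with neqc, 5 and 41 with floored log2 signal, 11 and 11 at a fold of 2, and 227 and 15 without both arrays, where 2 other list genes were enriched. Enriched targets were 14 without normalization between arrays (1 in the robust fit) and 4 with a variance trend. With the replicate number as a block 0 targets were enriched, and CYCS stayed at 1.14 (limma adjusted p = 0.976). Same-numbered arrays did not deviate together (correlations of deviations -0.45, -0.77 and -0.38). Deviations were taken from group means, and arrays numbered 2 that each resemble the other group give negative values either way. Whether the numbers pair the arrays cannot be told from these values. The causes of these shifts were not tested, except where stated.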
